A study of Mus musculus with 8 samples.

Results

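Ptbp2 tags were examined in 3 genes of the membrane-associated guanylate kinase scaffold family: Dlg1 (also called SAP97), Dlg2 (PSD-93) and Dlg4 (PSD-95). Tags were taken from fixed intervals of the mouse mm9 assembly on the plus strand, by tag midpoint. These were the 220 kb from 31660001 of chromosome 16 for Dlg1, the 1980 kb from 97620001 of chromosome 7 for Dlg2 and the 30 kb from 69830001 of chromosome 11 for Dlg4. The intervals held 421 tags for Dlg1, 7225 for Dlg2 and 257 for Dlg4, together 7903 of the 3098854 tags of the series, or 0.255%. The intervals were set by position alone, so tag counts played no part in drawing them. They are fixed spans around each gene, and no exon or intron of mm9 was annotated in the sources used here.

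The series is a HITS-CLIP experiment, in which ultraviolet light fixes a protein to the RNA it touches, an antibody recovers the complex and the bound RNA fragment is sequenced as a tag. All libraries came from wild-type cortex of CD1 embryos at embryonic day 18.5, with 4 libraries from brain 2 and 4 from brain 1. There was no second genotype or treatment, and neither a control antibody nor total RNA was analysed here. Cortex is a mixture of cell types, so binding by Ptbp2, the amount of transcript per cell and the number of cells that express it cannot be told apart in a tag count. Libraries of brain 2 held 228424 to 340852 tags and those of brain 1 held 458293 to 545387. The 4 libraries of a brain share 1 animal, so every p-value below refers to technical spread and not to the spread between animals. The titles letter libraries 1 and 2 of each brain as a and libraries 3 and 4 as b, with no explanation of the letters.

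The Dlg proteins line the membrane beneath excitatory synapses. Each carries PDZ domains, an SH3 domain and a guanylate kinase-like domain, and through these they hold glutamate receptors, adhesion molecules and signalling enzymes in place. Dlg4 is the most abundant scaffold of the mature postsynaptic density, Dlg2 is its close relative and takes part in the clustering of NMDA receptors and potassium channels, and Dlg1 acts earlier and more widely, in receptor trafficking and in epithelial polarity. Ptbp2, the neuronal polypyrimidine tract binding protein, binds pyrimidine-rich RNA and represses exons that adult neurons include. Dlg4 is a known target: Ptb proteins repress a cassette exon near the end of its transcript, and transcripts without that exon are degraded, which keeps PSD-95 low in immature neurons.

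In each locus the tags lay on the strand of the gene. Of the tags in the Dlg4 interval, 94.8% were on the plus strand (exact binomial 95% interval 91.5 to 97.1%), as were 93.9% in Dlg2 (93.3 to 94.4%) and 90.7% in Dlg1 (87.7 to 93.2%). Over the whole series the plus strand held 42.6% of tags. Such intervals cover counting error only. The RefSeq table of another mouse assembly, GRCm38.p6, places all 3 genes on the plus strand. Tags also stopped at the far limit of the intervals. The last 20 kb inside the Dlg2 limit held 86 tags and the next 20 kb outside held 1. For Dlg4 the last 20 kb inside held 237 and the 20 kb beyond held 3. The Dlg1 interval ended within a sparse stretch, with 6 tags in its last 20 kb and 1 in the 20 kb beyond. At the near limit no step was seen. In Dlg4 the first 20 kb inside held 78 tags and the 20 kb before held 27. Of those inside, 48 lay between 69839001 and 69842000. The stretches of 3 kb from 69830001, 69833001 and 69836001, next to the limit, held 7, 2 and 3 tags. The first 20 kb inside and the 20 kb before held 9 and 7 tags in Dlg1 and 5 and 13 in Dlg2. In the RefSeq table Acadvl lies before Dlg4 and Asgr1 after it, and non-coding genes and pseudogenes are listed inside Dlg1 and Dlg2, so a tag in an interval need not come from the Dlg transcript.

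Per length, Dlg4 was the most densely tagged of the 3, followed by Dlg2 and then Dlg1. Over all libraries pooled, the plus strand held 8.57 tags per kb in the Dlg4 interval, 3.65 in Dlg2 and 1.91 in Dlg1. Scaled to library depth, the density in CPM (tags in the interval per 1000000 tags of the library) per kb was 2.80 ± 0.34 in Dlg4, 1.15 ± 0.15 in Dlg2 and 0.589 ± 0.154 in Dlg1 (SD, n = 8 libraries). Dlg4 exceeded Dlg2 in 8 of 8 libraries, by 1.64 ± 0.38 CPM per kb (exact sign-flip permutation p = 0.00781, adjusted over 9 comparisons 0.00781). Dlg2 exceeded Dlg1 in 8 of 8 libraries, by 0.565 ± 0.055 (exact sign-flip permutation p = 0.00781, adjusted 0.00781). This p is the smallest that 8 libraries can give, and it treats libraries of 1 brain as independent. The comparison between loci was chosen after the data were seen.

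The total held by each locus was compared between brain 2 and brain 1 next. In the Dlg4 interval the libraries of brain 2 held 101, 79.0, 82.1 and 87.6 CPM, and those of brain 1 held 89.8, 78.6, 87.0 and 66.0. These ranges overlapped, and the means were 87.4 ± 9.71 CPM for brain 2 and 80.4 ± 10.7 CPM for brain 1 (SD, n = 4 each; two-sided exact permutation p = 0.371). The gap between the brains was smaller than the SD of either. With 10% of the interval taken off each end it was larger, at 76.2 CPM in brain 2 and 57.0 CPM in brain 1 (exact permutation p = 0.0857).

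The Dlg2 interval held 1960, 1826, 2218 and 2351 CPM in the libraries of brain 2, and 2662, 2636, 2391 and 2232 in those of brain 1. The highest library of brain 2 reached into the range of brain 1, and the other 3 lay below it. The means were 2089 ± 239 in brain 2 and 2480 ± 206 in brain 1 (SD, n = 4 each; exact permutation p = 0.0571).

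Dlg1 was the locus in which the brains did not overlap. Libraries of brain 2 held 101, 75.9, 103 and 131 CPM, and those of brain 1 held 178, 157, 150 and 141. Every library of brain 2 lay below every library of brain 1, within the libraries lettered a as well as within those lettered b. The means were 103 ± 22.6 in brain 2 and 156 ± 15.8 in brain 1 (SD, n = 4 each), a log2 ratio of -0.61 (exact permutation p = 0.0286, the smallest that 4 against 4 libraries allow). Adjusted over the 3 loci the exact permutation p was 0.0857, which does not pass 0.05. Separation of this kind was not rare in the series: in 4.57% of 9975 windows of 100 kb, and in 5.88% of 3756 windows of 10 kb, every library of brain 2 lay below every library of brain 1. The opposite separation occurred in 2.16% of the 100-kb windows and in 1.54% of the 10-kb windows.

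Part of these differences moved with the scaling. With a trimmed-mean scaling of the libraries instead of total tags, the median log2 change over all tested 10-kb windows was -0.01, against -0.21 with total tags. On that scale Dlg1 had a log2 ratio of -0.44, Dlg2 of -0.07 and Dlg4 of 0.31, with an exact permutation p of 0.0286 for Dlg1 and 0.0857 for each of the others, all 0.0857 after adjustment. When each position was counted once per library, the means of Dlg1 were 107 CPM in brain 2 and 148 in brain 1 (exact permutation p = 0.0571).

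**Figure D1:**
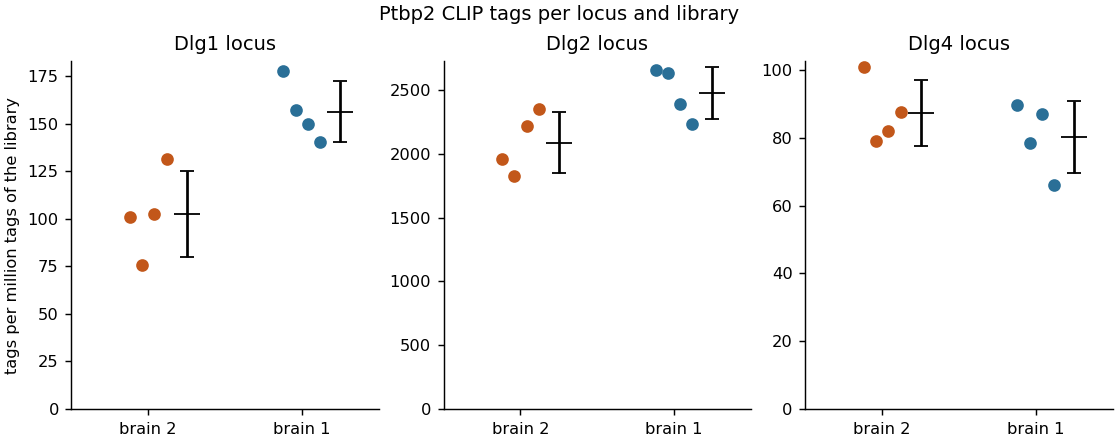
CPM in the Dlg1, Dlg2 and Dlg4 intervals (plus strand), with 1 point per library for brain 2 (left) and brain 1 (right); the horizontal mark and bar give the mean and SD of 4 libraries. In Dlg1 the libraries of brain 2 (75.9 to 131) lie below those of brain 1 (141 to 178), while the brains overlap in Dlg2 and Dlg4.

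The inner pattern of Dlg4 was dominated by a short stretch at its far end. Overlapping tags of the same strand were joined into clusters, whose height is the count of tags at their most covered base. The Dlg4 interval held 68 clusters, of which 42 were single tags and 6 reached a height of 10 or more. The tallest ran from 69856307 to 69856438 of chromosome 11, 132 nt wide, with 79 tags and a height of 70. Its highest bases were 69856332 to 69856338. It held 30.7% of all Dlg4 tags and ranked 435 by height among 22803 clusters of height 10 or more in the series.

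The tallest Dlg4 cluster was present in every library. It held 7, 12, 15 and 5 tags in the libraries of brain 2 and 8, 11, 13 and 8 tags in those of brain 1. Depth was lower in brain 2, so the mean level was 32.1 ± 10.001 CPM for brain 2 (range 21.9 to 44.0) and 21.0 ± 6.27 CPM for brain 1 (range 14.7 to 28.3; SD, n = 4 each), and the ranges overlapped. In a fit over 466 clusters with enough tags (limma voom, trimmed-mean scaling) its log2 change was 0.55 ± 0.35 (SE, adjusted p = 0.385), where 1.29% of clusters passed. With total tags, the scale of the CPM values above, the log2 change was 0.78 ± 0.33 (SE, limma voom adjusted p = 0.169). The trimmed-mean factors of this fit were computed from the clusters and differ from those of the windows. Over all 466 clusters the median log2 change was 0.02 with them and 0.16 with total tags. Tags of this cluster took 29 distinct positions, and the most frequent position held 37 tags, or 46.8%. With each position counted once per library 44 tags remained.

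The other tall clusters of Dlg4 were much lower. At 69841048 to 69841134 the second tallest had a height of 17, with 3, 2, 3 and 4 tags in brain 2 and 4, 1, 2 and 1 tags in brain 1. Between it and the next tall cluster lay 15172 nt. The remaining ones followed the tallest within a span of 2040 nt. They began at 69857078 and 69858308 (height 13 each) and at 69856544 and 69856792 (height 12 each). The last of these falls outside the 5 named by rule and was added after its values were seen. Together the 5 clusters at the far end, the tallest included, spanned a stretch that held 157 of the 257 tags, and the last of them ended 1654 nt before the limit of the interval. Whether any of these clusters lies beside the repressed cassette exon was not analysed here, since no exon positions of mm9 were at hand.

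The split of tags within this far end was set side by side for the 2 brains, with no test. The 3 kb from 69854001, which hold the tallest cluster, had 46.4 ± 6.81 CPM for brain 2 and 35.5 ± 6.79 CPM for brain 1 (SD, n = 4 each). The following 3 kb had 9.35 ± 6.42 in brain 2 and 20.8 ± 3.90 in brain 1. Both pairs of ranges overlapped, at 39.4 to 55.7 and 25.6 to 40.3 for the first stretch and at 2.93 to 18.2 and 17.5 to 26.1 for the second. The tallest cluster took 38.6% of the Dlg4 tags of brain 2 (95% interval 29.1 to 48.8%) and 25.6% of those of brain 1 (19.0 to 33.2%). By library the share was 25.9, 46.2, 53.6 and 25.0% in brain 2 and 16.3, 30.6, 32.5 and 25.8% in brain 1, so the brains overlapped.

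**Figure D2:**
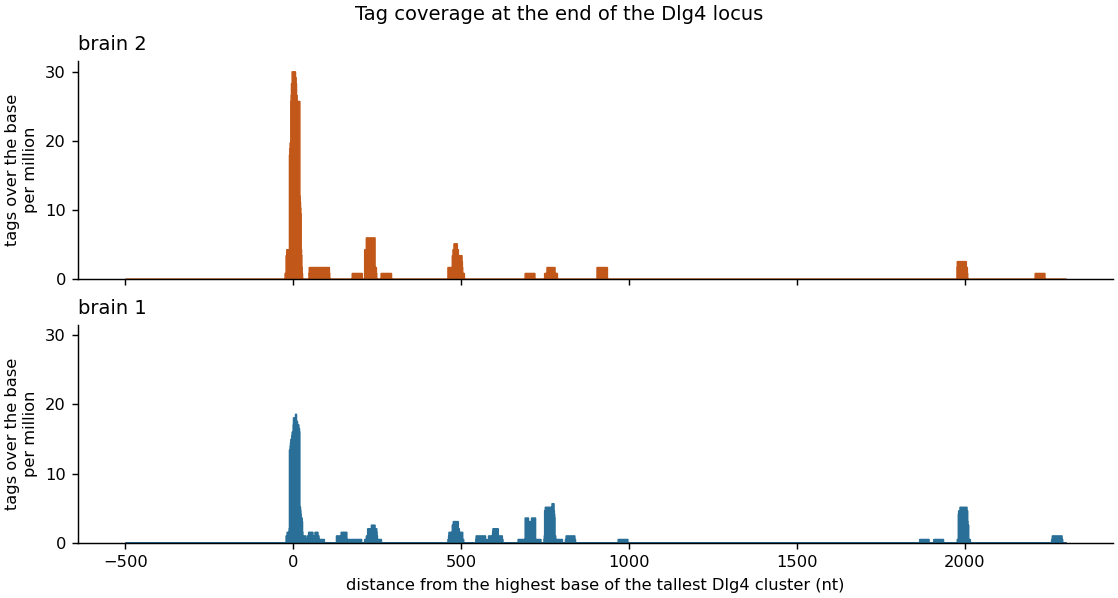
Number of tags over each base, scaled to 1000000 tags of the brain, along 2.8 kb at the far end of the Dlg4 interval, for brain 2 (top) and brain 1 (bottom); 0 on the horizontal axis is the highest base of the tallest cluster. Both brains show the tallest peak at 0, which reached 35 tags in brain 2 and 36 in brain 1, with lower peaks behind it.

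Dlg2 carried its tags along most of a very long locus. Its interval of 1980 kb held 3149 clusters, of which 80 reached a height of 10 or more, 17 a height of 20 and 6 a height of 30. Those 80 spanned 1502 kb, from 98094958 to 99596794, with a median spacing of 8.58 kb, a median height of 14 and a median width of 45 nt. Tags of both brains were found in 77 of them and tags of all 8 libraries in 20. The other 3 held tags of brain 1 alone, 10 to 13 each. Brain 1 was sequenced more deeply, and the same share over all tall clusters of the series is not given here. In 10 equal stretches of 198 kb, the first 2 were sparse, with 1.43% and 1.37% of the Dlg2 tags. The stretch from 98214001 held the largest share at 25.7%, that from 98610001 held 20.4% and the last, up to the far limit, 11.9%.

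The 5 tallest Dlg2 clusters were spread over more than 1 Mb of this stretch. The tallest lay at 98709715 to 98709759, with a height of 58. It held 6, 9, 8 and 11 tags in the libraries of brain 2 and 9, 2, 7 and 6 tags in those of brain 1. The level was 30.4 ± 12.1 CPM for brain 2 and 12.2 ± 5.46 CPM for brain 1 (SD, n = 4 each), and the ranges of 22.4 to 48.2 and 4.36 to 16.5 did not overlap. Of the 16 clusters named in the 3 loci it was the one with every library of brain 2 above every library of brain 1. Among the 466 clusters with enough tags for a fit, to which it did not belong, 10.7% were separated in that direction and 1.5% in the other.

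The second tallest Dlg2 cluster, at 98249971 to 98250022 (height 54), held 22 tags of brain 2 and 32 of brain 1, or 18.2 ± 6.38 and 16.5 ± 3.04 CPM (SD, n = 4 each). The third, at 99554819 to 99554874 (height 45), lay near the far limit of the interval. Its tags divided as 1, 2, 7 and 11 in brain 2 and 10, 6, 4 and 4 in brain 1, so the SD within brain 2, 20.4 CPM, exceeded the gap between the means of 19.6 CPM in brain 2 and 12.2 CPM in brain 1. The fourth, at 98333751 to 98333794 (height 40), held 8.39 ± 4.98 CPM in brain 2 and 15.3 ± 6.78 in brain 1. The fifth, at 98614691 to 98614763 (height 38), held 6.48 ± 3.64 in brain 2 and 15.9 ± 4.73 in brain 1 (SD, n = 4 each). Library ranges of both overlapped, at 3.74 to 15.2 against 8.73 to 23.4 for the fourth and at 3.74 to 11.7 against 10.6 to 20.2 for the fifth. These clusters were narrow, between 44 and 73 nt, and the most frequent position of each held between 24.1% and 42.5% of its tags.

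Dlg1 held few tall clusters. Among its 214 clusters, 127 were single tags and 2 reached a height of 10. The taller, at 31711210 to 31711248 of chromosome 16 (height 20), held 0, 2, 2 and 3 tags in brain 2 and 6, 3, 1 and 3 in brain 1. The other, at 31793488 to 31793517 (height 17), held 2, 0, 1 and 1 tags in brain 2 and 4, 6, 1 and 2 in brain 1. Both were narrow stacks, in which 55.0% and 58.8% of the tags shared 1 position. The next 3 had heights of 7 or 8 and began at 31758881, 31853189 and 31759120. The cluster at 31759120 held 7 tags of brain 1 and 0 of the 117 Dlg1 tags of brain 2, which allows a share there of up to 2.56%. Most of the Dlg1 tags lay outside tall clusters. The 22 kb from 31792001 held 21.6% of all Dlg1 tags and the 22 kb from 31704001 held 19.0%.

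**Figure D3:**
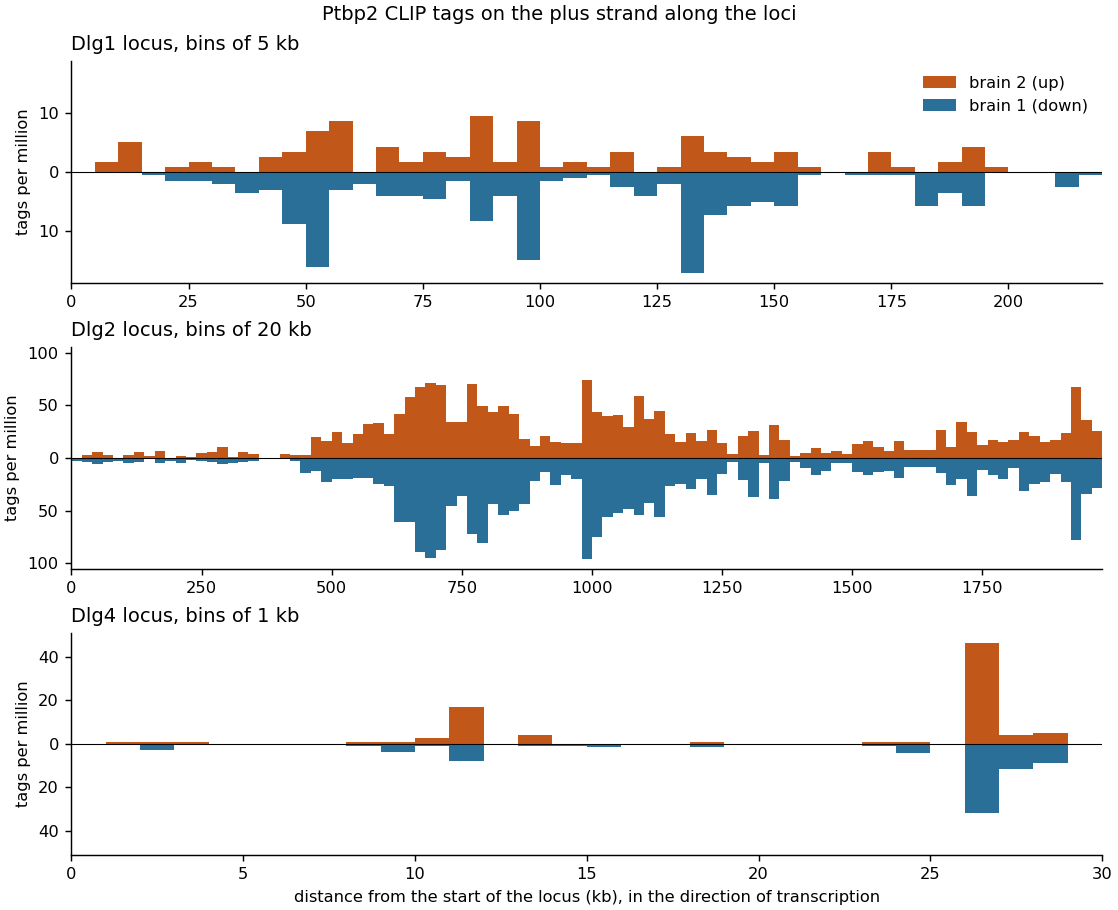
Plus-strand tags, scaled to 1000000 tags of the brain, along the Dlg1 (5-kb bins), Dlg2 (20-kb bins) and Dlg4 (1-kb bins) intervals, with brain 2 drawn upward and brain 1 downward from 0; the horizontal axis is the distance from the start of the interval in kb. Dlg2 tags are sparse over the first 2 stretches of 198 kb and broad after that, while Dlg4 tags gather in the last 5 kb.

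**Figure D4:**
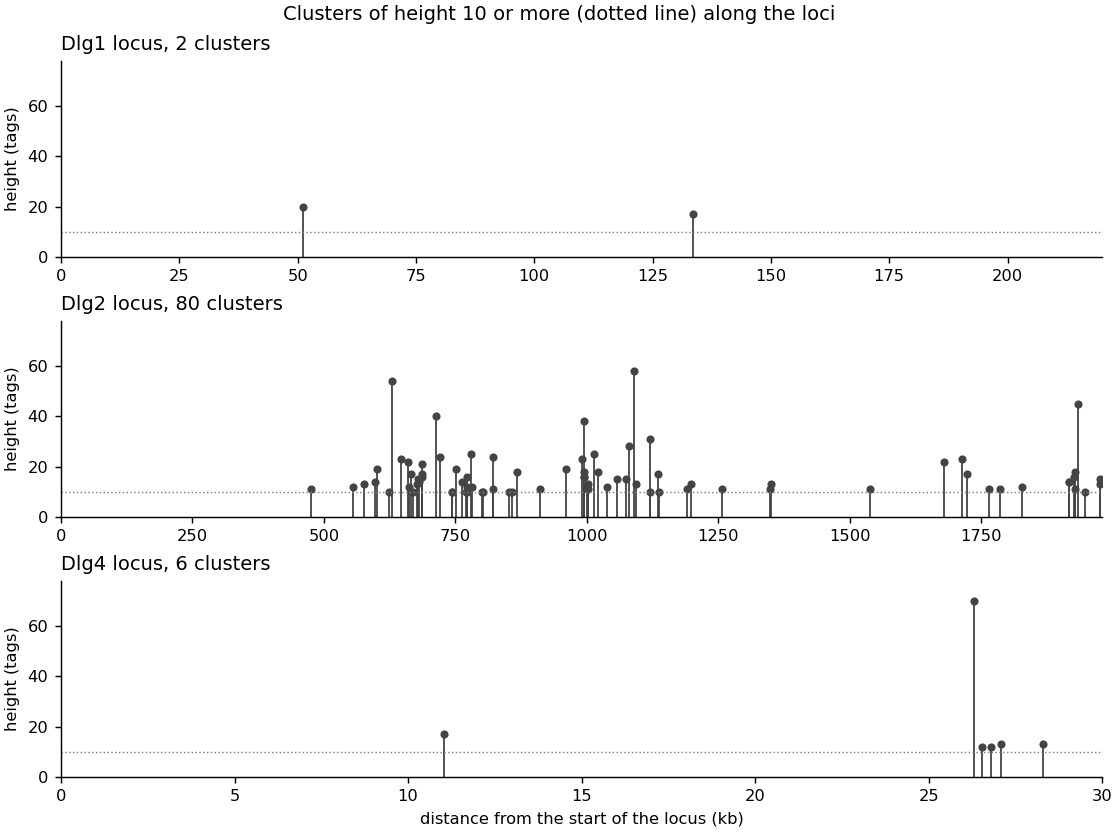
Height in tags of each cluster of height 10 or more (dotted line) against its distance from the start of the Dlg1, Dlg2 and Dlg4 intervals in kb. Dlg1 has 2 such clusters, Dlg2 has 80 with heights up to 58, and Dlg4 has 6, the tallest of height 70.

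The genes differed in how far their tags were gathered. Clusters of height 10 or more numbered 20 per 100 kb in Dlg4, 4.04 in Dlg2 and 0.909 in Dlg1. They held 58.0% of Dlg4 tags (exact binomial 95% interval 51.7 to 64.1%), 20.1% of Dlg2 tags (19.2 to 21.0%) and 8.79% of Dlg1 tags (6.26 to 11.9%), against 15.7% of all tags of the series. By library the Dlg4 share was 55.6, 80.8, 75.0 and 60.0% in brain 2 and 40.8, 55.6, 60.0 and 51.6% in brain 1. It exceeded the share of the whole library in 8 of 8 libraries, by 44.0 ± 12.6 percentage points (SD; exact sign-flip permutation p = 0.00781, adjusted over 9 comparisons 0.00781). The Dlg4 share was also above that of Dlg2 in 8 of 8 libraries, by 39.4 ± 12.2 points (exact sign-flip permutation p = 0.00781, adjusted 0.00781). The clusters were called on all libraries pooled, so each library was scored on clusters that its own tags helped to define. The counts of libraries and the p-values, here and in the next paragraph, therefore add little to the pooled shares.

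Dlg2 lay above the whole library in 8 of 8 libraries, but by 4.51 ± 2.43 percentage points (exact sign-flip permutation p = 0.00781, adjusted 0.00781). With a height of 20 or more the sign turned, to -0.79 points (exact sign-flip permutation p = 0.156). Dlg1 lay below the whole library in 8 of 8, with a difference of -7.13 ± 2.95 points (exact sign-flip permutation p = 0.00781, adjusted 0.00781). With a height of 5 or more its difference was -4.73 points (exact sign-flip permutation p = 0.125). With each position counted once per library the Dlg1 share was below in 7 of 8 libraries, at a mean of 7.58% in Dlg1 and 9.19% in the series, a difference of -1.61 points (exact sign-flip permutation p = 0.0391). A fixed height is reached sooner where tags are dense, and the density per kb follows the same order as these shares. The part of density in the difference was not tested.

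**Figure D5:**
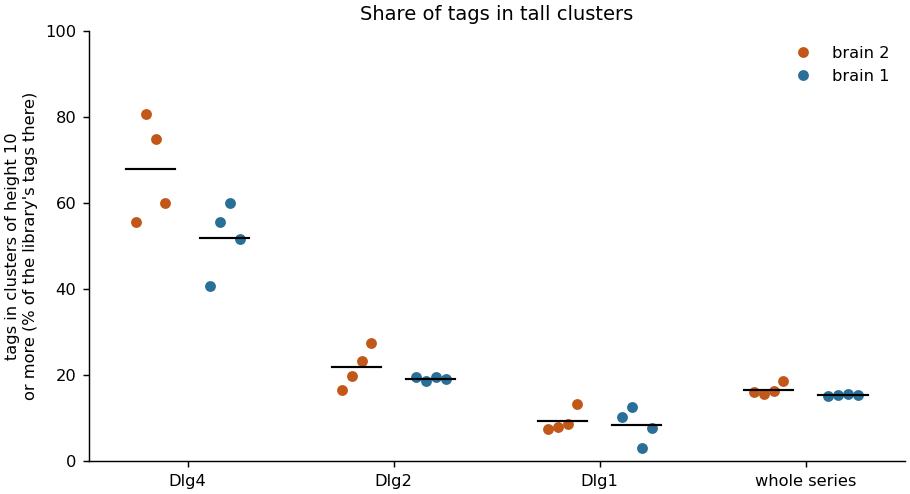
Share of a library's tags in the Dlg4, Dlg2 and Dlg1 intervals, and in the whole series, that lay in clusters of height 10 or more; each point is a library of brain 2 (left) or brain 1 (right), and the line is the mean of 4 libraries. Dlg4 libraries run from 40.8 to 80.8%, above all libraries of the other loci.

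In 4 other readouts Dlg4 again lay farthest from the series. Single-tag clusters held 16.3% of Dlg4 tags, 25.9% of Dlg2 tags and 30.2% of Dlg1 tags, against 38.2% in the series. Tags beyond the first at a position within a library made up 21.8% of Dlg4 tags, 14.5% of Dlg2 tags and 14.3% of Dlg1 tags. In the series they made up 11.5%. Tags of the full 30 nt made up 65.0% in Dlg4, 48.5% in Dlg2 and 53.0% in Dlg1, against 43.1% in the series. Of the distinct 5′ ends of brain 2, 18 of 57 in Dlg4 (31.6%), 443 of 1760 in Dlg2 (25.2%) and 20 of 94 in Dlg1 (21.3%) were also 5′ ends of brain 1, against 18.9% in the series. These readouts overlap with the share in tall clusters and are not separate support for it. The tallest Dlg4 cluster alone held 79 of the 257 Dlg4 tags. With each position counted once per library it held 44, and the whole Dlg4 interval held 201. Tag density differs among the loci as well, and its part in these shares was not tested.

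Clusters called in each brain alone at a height of 5 or more were compared next. Brain 2 had 5 in Dlg4, of which 4 overlapped one of brain 1, and brain 1 had 8, of which 4 overlapped one of brain 2. In Dlg2, 40 of 57 clusters of brain 2 (70.2%, 95% interval 56.6 to 81.6%) and 41 of 180 of brain 1 (22.8%, 16.9 to 29.6%) overlapped one of the other brain. The same shares over the series were 66.7% and 33.0%. In Dlg1, 1 of 2 clusters of brain 2 and 1 of 8 of brain 1 did. Brain 1 was sequenced more deeply, and the part of depth in these shares was not tested.

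Windows of 10 kb were then tested between the brains over the whole genome, to place any local change within the loci. Of the 223 windows of the 3 intervals, 26 had enough tags to be tested, 25 of them in Dlg2 and 1 in Dlg4, and none in Dlg1. With limma voom 0 of the 26 passed an adjusted p of 0.05, where 1.2% of all 3756 tested windows did. An unadjusted p under 0.05 was reached by 2 of the 26, and by 388 of all 3756 tested windows. By sign, 16 were lower and 10 higher in brain 2, while 50.3% of all tested windows were lower. In 5 of the 26, all in Dlg2, every library of brain 2 lay below every library of brain 1 in CPM, against 5.88% of all windows tested. Those windows began at 98270001, 98290001, 98410001, 98640001 and 98690001. Their scaled levels were 26.6, 34.3, 17.6, 21.3 and 21.6 CPM in brain 2 and 33.4, 47.1, 39.0, 33.8 and 35.9 in brain 1. The filter asked for enough tags in any 4 libraries, so a window could enter through those of brain 1 alone. The part of this filter in the count of 5 was not tested. Neighbouring windows of 1 transcript are not independent, and no test of this count was made.

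The Dlg4 window that holds its far end, the 10 kb from 69850001, held 14, 21, 21 and 11 tags in brain 2 and 32, 26, 32 and 22 in brain 1. Its scaled level was 60.7 CPM in brain 2 and 54.4 in brain 1, a log2 change of 0.18 ± 0.22 (SE, limma voom adjusted p = 0.847). With 179 tags it held more tags than 98.7% of the 34816 windows of the series with 20 tags or more. The other Dlg4 windows, from 69840001 and from 69830001, held 58 and 20 tags.

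The fullest windows of Dlg2 began at 98610001, 98330001, 98300001, 98290001 and 98750001 and held 228, 187, 172, 133 and 131 tags. The first of these held 17, 21, 30 and 5 tags in brain 2 and 53, 31, 47 and 24 in brain 1, a log2 change of -0.27 ± 0.28 (SE, limma voom adjusted p = 0.826). The log2 change of the window from 98290001 was -0.61 ± 0.28 (limma voom adjusted p = 0.435), and it was -0.31 without library 3 of brain 2. This window held 11, 9, 7 and 9 tags in brain 2 and 28, 22, 23 and 24 in brain 1. In this window the level was 32.1 ± 9.85 CPM for brain 2 and 50.1 ± 1.52 CPM for brain 1 (SD, n = 4 each), and all libraries of brain 2 lay below those of brain 1. The smallest adjusted p of the 26 windows belonged to the window from 98700001, which holds the tallest Dlg2 cluster and was named after its values were seen. Its log2 change was 0.62 ± 0.26 (limma voom adjusted p = 0.331). It was 0.40 with total tags, 0.32 with each position counted once per library and 0.41 without library 2 of brain 1.

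Dlg1 had no window with enough tags to test at 10 kb. Its fullest, from 31790001, held 4, 3, 2 and 2 tags in brain 2 and 12, 12, 13 and 10 in brain 1, or 9.67 ± 3.81 and 24.4 ± 3.35 CPM (SD, n = 4 each). The next ones, from 31710001, 31750001, 31740001 and 31700001, held 55, 49, 33 and 30 tags. Together the 5 held 53.4% of the Dlg1 tags.

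Windows of 100 kb had more tags each and reached 18 windows of the loci, 16 in Dlg2 and 2 in Dlg1. None passed (limma voom, 0 of 18, against 0.632% of 9975). An unadjusted p under 0.05 was reached by 4 of the 18, and by 1210 of all 9975. By sign 16 of the 18 were lower in brain 2, where 48.8% of all 100-kb windows were. Among them were both Dlg1 windows, with a log2 change of -0.58 ± 0.20 from 31700001 (SE, limma voom adjusted p = 0.184) and of -0.82 ± 0.44 from 31800001 (limma voom adjusted p = 0.454). The smallest adjusted p was that of the Dlg2 window from 98600001, with a log2 change of -0.46 ± 0.13 (limma voom adjusted p = 0.0729) and scaled levels of 229 CPM in brain 2 and 319 in brain 1. The Dlg4 interval makes up a minor part of a 100-kb window, and none was assigned to it.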

How the data were processed

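Per the file headers and labels, the authors deposited 1 list of mapped Ptbp2 CLIP tags, giving the position, strand and name of each tag; the name starts with the code of its library. Its other column, a score, is 0 throughout and was not used. The 8 codes matched the 8 sample titles. Per the submitters' processing notes, Bowtie was used, with mm8 and mm9 named as builds; tags reached position 197194446 of chromosome 1, past its published end in mm8, so positions are mm9, counted from 1. No source used here states whether repeated or multiply mapping reads were removed.

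Tags were counted per locus, per strand-specific window of 10 kb and per cluster (overlap of 1 nt or more, all libraries pooled, height 10 or more) with Python 3.11.15 and pandas 2.3.3. Windows needed the rate of 10 tags at median depth in 4 libraries and 15 tags in all. Their scaling used trimmed means of log ratios (30% and 5% trimmed), and they were tested with limma 3.58.1 (voom, R 4.3.3), with Benjamini-Hochberg adjustment over all windows. The test was checked on simulated data. Locus totals used exact permutation tests over libraries.

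The members, lists and tests were chosen with earlier results of these data known. The text names the 5 tallest clusters and 5 fullest windows of each locus. The alternatives were other scalings, filters, heights, window sizes and locus limits, repeated positions, a replicate block and each library left out. Other postsynaptic scaffold genes and markers of the tissue were not analysed here, because no gene positions of mm9 were at hand. For the same reason no sequence is printed.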

Additional observations from a re-analysis of the deposited data

Results flagged for a closer look

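Among 34 sets of 4 libraries of 1 brain with 20 tags or more (loci, named clusters and named windows), a single set held a library that stood apart by Dixon's criterion, which by chance picks about 1 set in 20. In the Dlg2 cluster that begins at 98249971, library 4 of brain 2 had 2 tags, or 8.76 CPM, while the remaining libraries of that brain had 20.5 to 22.4 CPM. The same library was the shallowest, at 228424 tags, and 18.6% of its tags repeated a position.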

How the results depend on the processing

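No 10-kb or 100-kb window of the loci passed under any alternative (0 in each, limma voom), with 18 to 128 windows of the loci tested. In these fits 1 to 11 windows of the loci had an unadjusted p under 0.05. The 11 were among 128 tested without the count filter, where 2353 of all 34816 windows had such a p. With the replicate block 0 windows of the loci passed. The block gave exact sign-flip p-values of 0.125 for Dlg1, 0.25 for Dlg2 and 0.375 for Dlg4, where 4 pairs cannot go below 0.125. No label pairs the libraries by number, and same-numbered libraries did not deviate together (correlations from -0.03 to -0.01 over windows). The block changed no call in the loci after adjustment, and with it 40 windows of the genome passed. Over the whole genome 45 windows passed, against 8 with total tags, 13 without the count filter, 14 with positions counted once, 22 with libraries of a letter summed, 20 and 27 without library 1 and library 2 of brain 1, and 63 at 100 kb; with total tags 15 clusters passed instead of 6. The locus differences in CPM kept their sign for Dlg1 and Dlg2 in each alternative run; with 1 library left out they spanned -63.2 to -44.7 for Dlg1 (exact permutation p = 0.0571, the smallest then possible), -479 to -304 for Dlg2 and 2.28 to 10.2 for Dlg4. The Dlg4 difference of 7.06 CPM was 18.3 with trimmed-mean scaling, 19.2 with 10% off each end of the interval and 3.77 with positions counted once. Without its tallest cluster the Dlg4 difference turned to -4.08 CPM; the alternative takes out the cluster that is higher in brain 2. The window from 98610001 turned to 0.15 on the log2 scale without library 4 of brain 2 (lowest -0.54, without library 3 of brain 2). That from 98750001 turned to 0.030 with the replicate block and to 0.18 without library 2 of brain 2 (lowest -0.61); none of these windows passed in any fit, and the cause was not tested. Cluster counts moved with the height set and the libraries used. A height of 5 or more gave 12 clusters in Dlg1 and 296 in Dlg2, and a height of 20 or more gave 1, 17 and 1 in Dlg1, Dlg2 and Dlg4. With brain 2 alone there were 0, 10 and 2, with brain 1 alone 38 in Dlg2 and 3 in Dlg4, and with positions counted once per library 47 in Dlg2. Brain 1 was sequenced more deeply, and the part of depth in these counts was not tested. With 1 library left out the Dlg2 count of 80 fell to between 55 and 70. The Dlg2 share in tall clusters against the series turned to -0.79 percentage points at a height of 20, and was 10.2 at a height of 5. That of Dlg1 was -4.73 at a height of 5, no longer past 0.05, -3.56 at a height of 20 and -1.61 with positions counted once. That of Dlg4 was 23.4 at a height of 20, and its difference from Dlg2 was then 24.2.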
